A study of Mus musculus with 2 samples.

Results

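The genes described here are the 37 genes of the unfolded protein response and of the secretory machinery of the endoplasmic reticulum (ER). They were listed by name, not picked by a cut on the measured values although earlier results of these data were known, and all 37 were found among the 18193 genes that the arrays measured. Gene expression had been profiled on Affymetrix 3′ arrays in mouse B cells labelled as cultured and activated, with 1 array titled miR-155 knockout and 1 array titled wild-type. Both labels share the C57 background (from Jackson Laboratory), male mice and an exposure to cycloheximide, which blocks translation elongation, at 100 ug/ml for 8 min before harvest. The activating agent, the age of the mice and the number of animals behind each array are not given in the labels. The growth text describes haematopoietic progenitors kept 6 days with G-CSF and stem cell factor, which is a different culture from the one named in the design.

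The labels contradict each other on genotype. Titles and genotype entries give the assignment used here, while the source names give the opposite assignment for both arrays. Mir155hg, the host transcript of miR-155, had a log2 level of 10.88 on the array titled knockout and 6.63 on the array titled wild-type, which goes against the titles. Whether its probe set falls inside the deletion was not determined, so this value does not settle the assignment. All differences are therefore given as the array titled knockout minus the array titled wild-type, in log2 units, and every sign turns over if the source names are right. With 1 array per label there is no replicate spread, no test and no p-value. As a technical yardstick, differences from the 2 brightest probe sets of a gene were compared in 4906 genes. Both sets had to reach the median level of all probe sets, 6.71. The gap between them had a median of 0.08 and a 95th percentile of 0.31. Both sets read the same 2 samples, so the gap does not measure spread between animals or between arrays.

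When unfolded proteins accumulate in the ER, they are sensed by 3 membrane proteins. IRE1 (gene Ern1) splices the mRNA of the transcription factor XBP1, PERK (Eif2ak3) slows translation initiation and favours ATF4, and ATF6 is cut to release a transcription factor. Together these raise chaperones, folding enzymes, translocation components and the degradation machinery of the ER. B cells are known for using this programme, and XBP1 above all, when they become antibody-secreting plasma cells under the control of Blimp-1 (Prdm1).

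The microRNA whose gene was targeted is shown first, as the RNA that separates the genotypes. Its mature sequence comes from RefSeq on GRCm38.p6, chr16:84714143-84714165, plus strand, and the capitals mark the seed, bases 2 to 8.
mmu-miR-155-5p: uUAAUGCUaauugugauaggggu

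Promoters of the listed genes are shown for elements known from genes of this kind. A high share among the listed genes is therefore built into the choice and is no independent result. The classic element of ER chaperone promoters is the ER stress response element (ERSE), written CCAAT, then any 9 bases, then CCACG, and bound by NF-Y together with ATF6 or XBP1. A shorter form, ERSE-II, is ATTGG, any base, then CCACG. Both strands of the RefSeq promoter windows (GRCm38.p6, 250 bases before to 50 bases after the gene start) were searched, and 30 of the 37 genes had such a window. ERSE was found in 9 of these 30 genes (30.0%), against 37 of all 27025 genes with a window (0.137%). ERSE-II was found in a further 2 of the 30, Dnajb11 and Herpud1, against 12 of all genes (0.0444%). The first sequence is the whole window of Hspa5, the gene of the main ER chaperone BiP, at chr2:34771840-34772139 on the plus strand. Capitals mark the fixed letters of its ERSE, at bases 186 to 204 of the window.
Hspa5: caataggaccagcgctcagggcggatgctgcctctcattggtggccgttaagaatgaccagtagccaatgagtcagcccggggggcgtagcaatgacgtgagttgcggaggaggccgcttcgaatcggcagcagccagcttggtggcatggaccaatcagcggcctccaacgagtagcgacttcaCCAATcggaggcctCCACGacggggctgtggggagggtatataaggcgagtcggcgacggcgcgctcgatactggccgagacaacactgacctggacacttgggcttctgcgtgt

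The other matches are shown with 20 bases on each side, read on the strand of the gene, with the fixed letters in capitals. They lie at chr8:84847055-84847113 (minus strand) for Calr, chr11:50325780-50325838 (minus) for Canx, chr14:118937807-118937865 (plus) for Dnajc3, chr12:17266471-17266529 (plus) for Pdia6 and chr19:6046512-6046570 (plus) for Syvn1. Hsp90b1 held 2 matches, of which the one nearer the gene start, at chr10:86705513-86705571 (minus), is shown. Those of Creld2 (chr15:88819500-88819558, plus) and Derl3 (chr10:75893222-75893280, plus) are also ERSE, and those of Herpud1 (chr8:94386357-94386407, plus) and Dnajb11 (chr16:22857832-22857882, plus) are ERSE-II. In Calr, Creld2, Derl3 and Hsp90b1 the element shown reads on the opposite strand, so it appears as CGTGG before ATTGG.
Calr: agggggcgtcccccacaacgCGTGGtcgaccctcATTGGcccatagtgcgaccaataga
Canx: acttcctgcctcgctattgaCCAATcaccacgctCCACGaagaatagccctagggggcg
Hsp90b1: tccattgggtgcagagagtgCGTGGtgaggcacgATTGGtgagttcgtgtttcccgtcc
Dnajc3: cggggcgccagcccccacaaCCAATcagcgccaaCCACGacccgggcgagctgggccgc
Pdia6: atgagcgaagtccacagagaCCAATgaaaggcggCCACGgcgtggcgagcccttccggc
Creld2: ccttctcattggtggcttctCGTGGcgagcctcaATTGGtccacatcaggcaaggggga
Syvn1: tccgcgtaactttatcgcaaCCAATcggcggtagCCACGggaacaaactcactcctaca
Derl3: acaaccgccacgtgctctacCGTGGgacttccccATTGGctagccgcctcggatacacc
Herpud1: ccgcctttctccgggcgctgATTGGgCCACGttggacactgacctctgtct
Dnajb11: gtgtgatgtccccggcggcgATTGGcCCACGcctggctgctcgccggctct

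A further pair of elements was searched in the same windows. The core of the XBP1 site, TGACGTGG, was in none of the 30 genes and in 0.714% of all genes. The composite site of ATF4, TGATGCAA, was in Herpud1 alone among the 30 and in 1.03% of all genes. The Herpud1 promoter thus held both an ERSE-II and an ATF4 composite site. A match describes letters in this window and shows no binding.

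As a whole the 37 genes were close to equal on both arrays. Their median difference was 0.06 (SD 0.17 over genes, range -0.56 to 0.35), beside a median of 0.00 and an SD of 0.20 over all 18193 genes. Of the 37 genes 26 were higher and 11 lower on the array titled knockout. Over all genes 48.0% were higher, but the share depended on level. It was 56.9% among the 10717 genes whose mean level reached 6.71, the median over probe sets without the array controls. That class held 36 of the 37 genes and had a median difference of 0.03. Above the 75th percentile of levels the share was 62.7% and the median difference 0.04. In that class 24 of the 33 listed genes were higher. The count of 26 and the median of 0.06 are to be read against these higher values, since most members are abundant transcripts. No member was higher by 0.5 or more (1.41-fold), a size that 0.588% of all genes reached, and 1 member, Jchain, was lower by 0.5 or more, against 1.39% of all genes. With the yardstick of 0.31 in place of 0.5, Calr and, only just, Dnajc3 were higher (background 3.83%) and Ern1 and Jchain lower (background 5.84%).

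**Figure D1:**
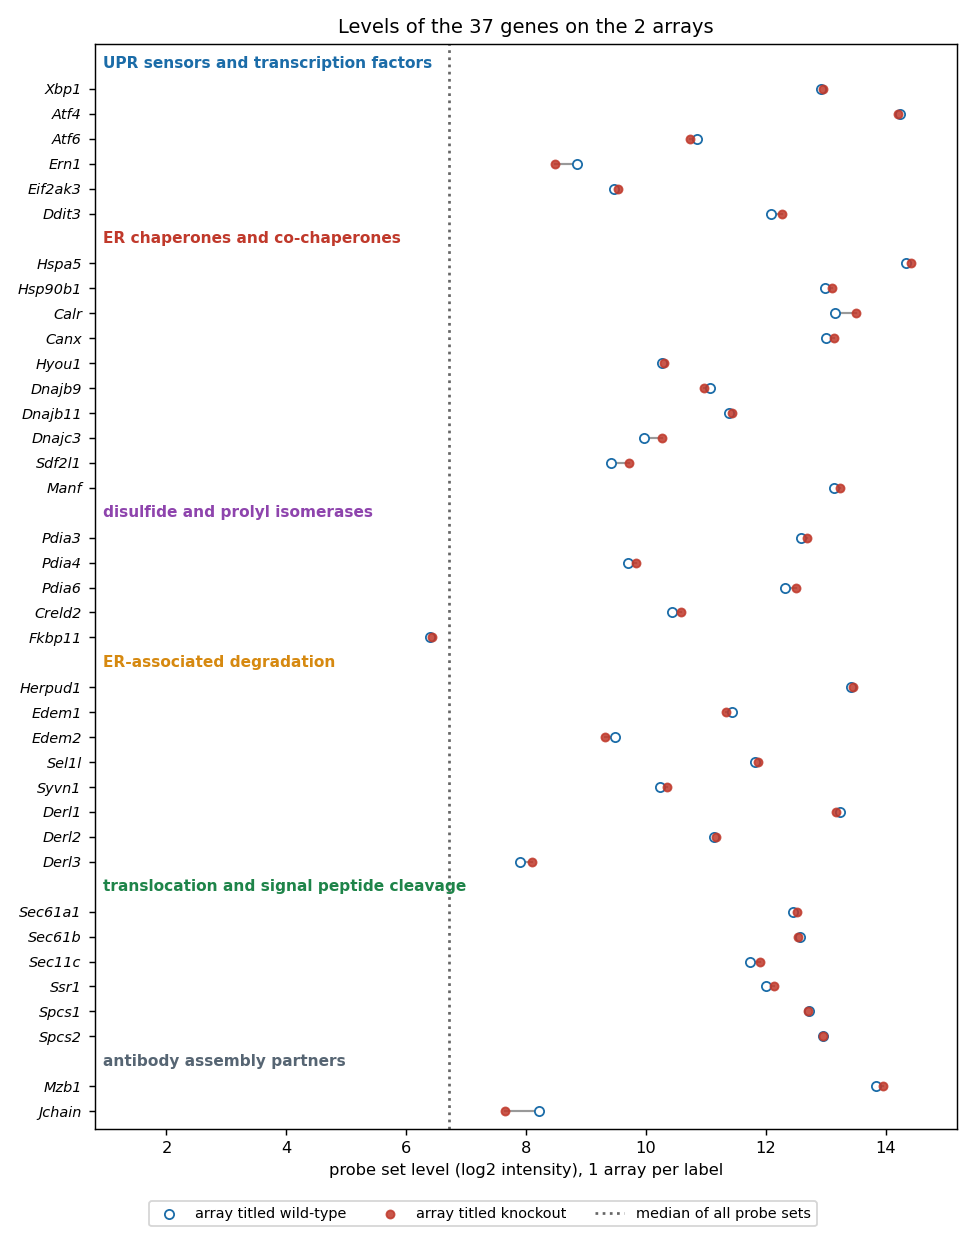
Log2 level of each of the 37 genes (horizontal axis) on the array titled wild-type (open points) and the array titled knockout (filled points), grouped by role; the dotted line is the median of all probe sets. The points of most genes nearly coincide, Jchain, Ern1, Calr, Dnajc3 and Sdf2l1 show the widest gaps, and Fkbp11 is the gene that lies below the line.

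The sensors and transcription factors of the response were split, with 3 higher and 3 lower and a median of 0.01. Xbp1, the central factor of the secretory programme, was at 12.96 on the array titled knockout and 12.93 on the array titled wild-type. Its 4 probe sets differed by 0.02 to 0.22, where 0.22 came from the dimmest set (7.26 against 7.05). They were read as total Xbp1 message, so splicing by IRE1 was not measured. Atf4 had levels of 14.21 and 14.23 and is controlled largely through its translation, which the arrays do not see. The dimmer Atf4 probe sets differed by 0.14 and 0.05, so its lower direction was not shared by them. Neither transcript was therefore separated between the arrays by more than the probe set yardstick.

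Ern1, the kinase and endonuclease that splices Xbp1, was the sensor with the largest difference, at 8.48 against 8.85 (-0.37, 1.30-fold lower). That value came from the brightest of 5 probe sets. The other 4 differed by -0.13, 0.14, -0.13 and -0.16, and the mean of all 5 gave -0.13. The size of the Ern1 difference thus rests on the probe set chosen, and its direction was shared by 4 of 5 probe sets, of which 2 lay below the median of all probe sets. Atf6 was at 10.74 against 10.86, and its 3 probe sets were all lower, with differences from -0.14 to -0.12. Eif2ak3, the PERK kinase gene, had levels of 9.53 and 9.47, and averaging its 3 probe sets gave the opposite direction, -0.10. Ddit3, which encodes the pro-apoptotic factor CHOP downstream of PERK and ATF4, was higher on both of its probe sets, by 0.18 (12.26 against 12.09) and 0.29.

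The chaperones and co-chaperones leaned the same way, although each difference was small. On the array titled knockout 9 of the 10 were higher, with a median of 0.11. All 10 lay above the 75th percentile of levels, where 62.7% of all genes were higher, with a median of 0.04. Hspa5, the BiP gene and the usual reporter of ER stress, was at 14.42 against 14.34. Its 3 probe sets differed by 0.01 to 0.14, and the gene was not separated beyond the yardstick. Hsp90b1, the ER paralog of HSP90, was at 13.11 against 12.99, and Canx, the membrane-bound lectin chaperone calnexin, at 13.13 against 13.01. Canx was higher on all 3 of its probe sets, by 0.12 to 0.26.

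Calr, the calcium-binding lectin chaperone calreticulin, had the highest difference of the 37. It was at 13.52 on the array titled knockout and 13.16 on the array titled wild-type (0.35, 1.28-fold). The other 2 Calr probe sets differed by 0.27 and 0.28, so all 3 gave nearly the same size. Calr promotes folding of glycoproteins as a soluble partner of calnexin, and both genes carry the ERSE shown above.

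Dnajc3, which encodes the BiP co-chaperone P58IPK, an inhibitor of PERK signalling, was at 10.28 against 9.97 (0.31, 1.24-fold). All 5 of its probe sets were higher, but they ranged from 0.04 to 0.32, and their mean gave 0.20. Sdf2l1, a partner of the ER HSP40 proteins, was at 9.72 against 9.42 (0.30) on its only probe set. These 2 genes and Calr were the members with the widest gaps in the upward direction.

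The remaining chaperone genes differed little. Manf, a secreted factor of the stressed ER that also binds BiP, was at 13.24 against 13.14. Dnajb11, an HSP40 co-chaperone of BiP, was at 11.43 against 11.39. Hyou1, the nucleotide exchange factor ORP150, was at 10.30 against 10.28 on its brightest probe set, while dimmer sets differed by 0.09 and 0.36, and its sign turned under 2 alternative normalizations. Dnajb9, the co-chaperone ERdj4 and a well-known XBP1 target, was the member of this role that was lower, at 10.97 against 11.08.

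The folding isomerase genes leaned upward on the array titled knockout, with a median of 0.13 over 5 genes and a highest difference of 0.18. In 4 of them the level was above the median of all probe sets and the difference above 0, and the fifth, Fkbp11, has no readable direction. These 4 also lay above the 75th percentile of levels, where 62.7% of all genes were higher. Pdia6, a disulfide isomerase that also binds IRE1, was at 12.50 against 12.32. Its second, much dimmer probe set (7.30 against 6.94) differed by 0.36. Pdia4 was at 9.84 against 9.71, and Pdia3, the isomerase ERp57 that works with calnexin and calreticulin, at 12.68 against 12.59. The dimmer probe set of Pdia3 differed by -0.07, so its direction was not shared by both. Creld2, a cysteine-rich protein induced by ER stress, was at 10.59 against 10.44 on a single probe set.

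Fkbp11, a prolyl isomerase known from secretory cells and plasma cells, was the only member whose level lay below the median of all probe sets, at 6.44 and 6.40. Its 3 probe sets differed by -0.17, 0.13 and 0.03. No direction can be read for this gene.

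**Figure D2:**
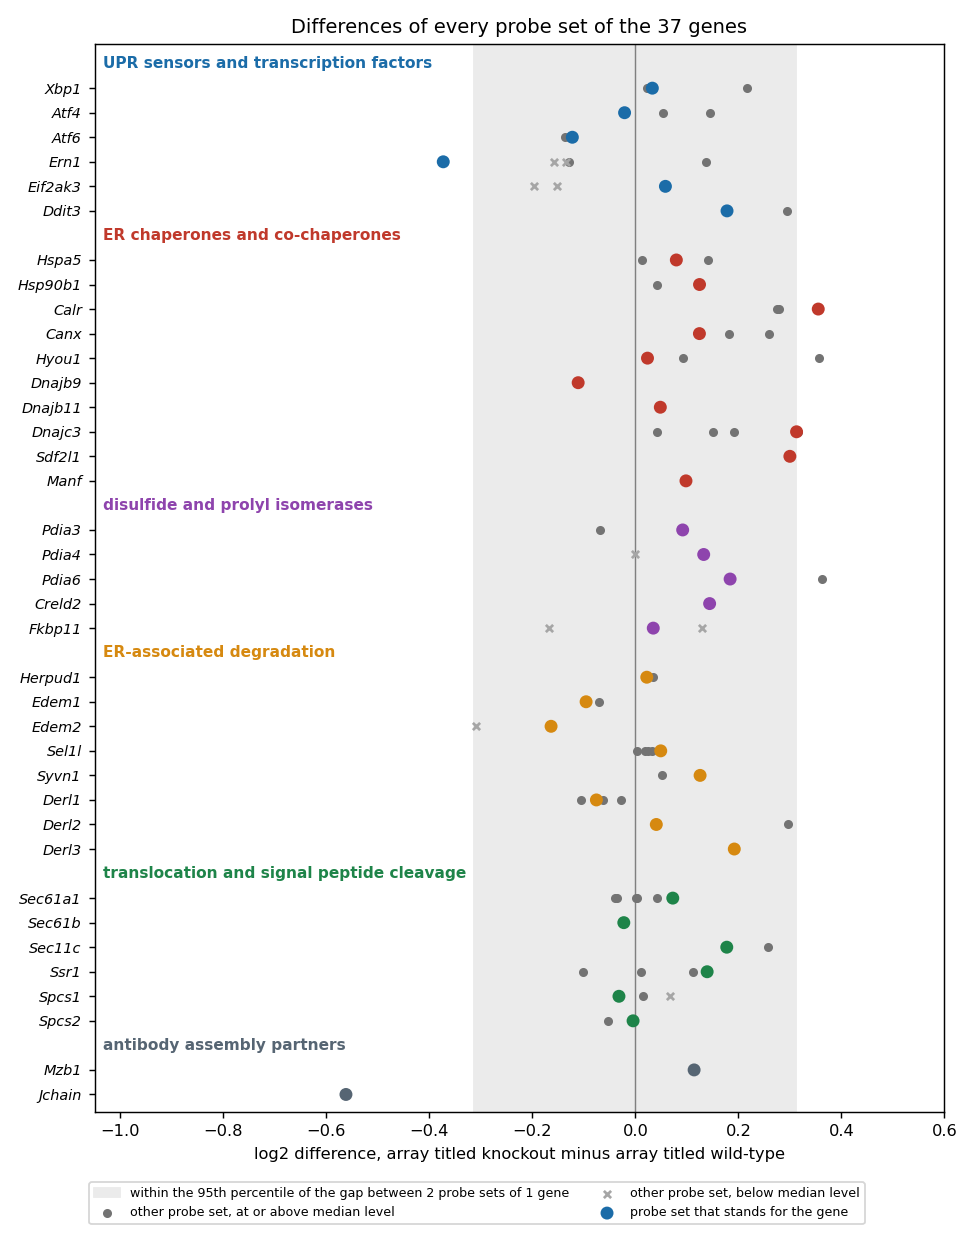
Log2 difference (horizontal axis, array titled knockout minus array titled wild-type) of every probe set of the 37 genes; large points are the probe sets that stand for the genes, grey points and crosses their other probe sets, and the grey band spans 0.31 to each side of 0. Most points lie inside the band, the 3 Calr points lie together between 0.27 and 0.35, and Jchain at -0.56 lies apart.

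Genes of ER-associated degradation, which returns misfolded proteins to the cytosol for the proteasome, were mixed. On the array titled knockout 5 of 8 were higher and 3 lower, and the median was 0.03. Herpud1, a membrane scaffold of the degradation complex, was at 13.45 against 13.43, with 0.02 and 0.03 on its 2 probe sets. Sel1l and Syvn1, the adaptor and the ubiquitin ligase at the core of that complex, differed by 0.05 (11.86 against 11.82) and 0.13 (10.35 against 10.23). All 5 probe sets of Sel1l lay between 0.00 and 0.05, so this gene was level by every reading.

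The mannose-trimming factors that mark glycoproteins for disposal were both lower. Edem1 was at 11.35 against 11.44 and Edem2 at 9.32 against 9.48, and each had a second probe set that was lower as well (-0.07 and -0.31), the one of Edem2 below the median of all probe sets. Among the derlins, membrane proteins of the exit channel, Derl1 was at 13.17 against 13.24 and was lower on all 4 of its probe sets. Derl2 was at 11.17 against 11.13 and Derl3, the family member most tied to secretory cells, at 8.09 against 7.90 (0.19). The 3 family members therefore did not share a direction, and none passed the yardstick.

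Genes of entry into the ER were evenly split, with 3 higher and 3 lower and a median of 0.03. Sec61a1 and Sec61b, subunits of the channel through which nascent chains enter, were at 12.53 against 12.45 and at 12.54 against 12.57. The 6 probe sets of Sec61a1 lay between -0.04 and 0.07. Ssr1, a subunit of the channel-associated TRAP complex, was at 12.14 against 12.00, with other probe sets from -0.10 to 0.11. The signal peptidase subunits Spcs1 (12.70 against 12.73) and Spcs2 (12.95 against 12.96) were level. Sec11c, a catalytic subunit of the same enzyme, was higher on both probe sets, by 0.18 (11.91 against 11.73) and 0.26.

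The genes that serve antibody assembly moved apart. Mzb1, a B cell partner of GRP94 in immunoglobulin assembly, was at 13.96 against 13.85 (0.11) on a single probe set. Jchain, the joining chain of IgM and IgA polymers, was at 7.65 on the array titled knockout and 8.21 on the array titled wild-type (-0.56, 1.48-fold lower). Both levels were above the median of all probe sets, and the gene had a single probe set, so no second reading bears on it. Jchain was the largest difference of the 37 in either direction.

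Genes around Jchain were read from lists of plasma cell regulators and immunoglobulin genes. Of 10 measured plasma cell genes 1 was lower by 0.5 or more (1.39% of all genes) and none was higher by that size (0.588%). The median was 0.05. Prdm1, the Blimp-1 gene, was at 9.46 against 10.65 (-1.19) on a single probe set. Ell2, an elongation factor that favours the secreted form of immunoglobulin message, was at 10.80 against 11.16. Slamf7, a surface receptor of plasma cells, was at 10.94 against 10.49, and Pax5, the factor that holds B cell identity, at 8.74 against 8.51. Past the yardstick of 0.31, 3 genes of this list were lower (5.84% of all genes) and 1 higher (3.83%). The third of the lower genes was Bcl6, the germinal centre factor that opposes Prdm1, at 9.52 against 9.87 (-0.35). The plasma cell marker Sdc1 (0.07) and the factor Irf4 (0.05) were level. Bcl6, Sdc1 and Irf4 are named after their values were seen. The list joins plasma cell genes with Pax5 and Bcl6, whose roles named above are opposed to them. A common direction was thus not to be expected, and the median of the list describes no single programme.

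The list of 7 measured immunoglobulin genes includes Jchain and had a median of -0.15. Its 2 genes with a drop of at least 0.5 were Igha and Jchain itself. The count and the median thus partly restate the Jchain value and give no separate reading of it. Igha, the IgA heavy chain constant gene, was at 8.74 against 9.44 (-0.70), and its 3 probe sets were all lower, with differences from -0.83 to -0.60. Ighm, the IgM heavy chain, was at 14.43 against 14.35 on its brightest probe set, but its probe sets ranged from -0.32 to 1.04. Ighg3, the heavy chain of IgG3, was at 8.00 against 7.72. Immunoglobulin genes share sequence, so their probe sets may read more than 1 gene. In bulk RNA, fewer cells of a type and less RNA per cell cannot be told apart.

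Markers of cell types were read as well. All 7 measured B cell markers were above the median of all probe sets on both arrays. All 7 were higher on the array titled knockout (median 0.20), against 56.9% of all genes at or above the median level. Of 10 macrophage and monocyte markers 9 were lower on the array titled knockout (median -0.20), with mean log2 levels of 6.58 against 6.78. Of 7 dendritic cell markers 6 were lower (median -0.08). Among all 18193 genes 9048 were lower. Of 9 neutrophil and precursor markers 2 reached the median of all probe sets on each array, and the list had a median of -0.05. The 5 T cell markers, all above the median of all probe sets on both arrays, had a median of 0.04 and a mean of 0.13. Thy1 (0.56), named after its value was seen, was the marker furthest from 0. The part of these cells in the differences of Jchain and of the chaperones was not tested.

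The other genes of the response gave little movement. Of 20 PERK and ATF4 targets, all above the median of all probe sets, 10 were higher and 10 lower, the median was 0.01, and none differed by 0.5 or more. Its ends were Vldlr (7.64 against 7.21, 0.43) and Stc2 (7.21 against 6.90, 0.31), opposite Cebpb (12.51 against 12.84, -0.34) and Ppp1r15a (-0.25). Vldlr had 6 probe sets and Stc2 3, of which the brightest is given, and Stc2 lay just inside the yardstick. The second, dimmer probe set of Cebpb differed by -0.51. Ppp1r15a encodes GADD34, which ends the translation block set by PERK. Among 15 other regulators of the response, 9 higher and 6 lower, Nfe2l2 was lower by over 0.5, at 10.70 against 11.39 (-0.69). Nfe2l2 encodes the antioxidant factor NRF2, which PERK can phosphorylate, and its second, dimmer probe set differed by 0.13. The remaining ends of that list were Wfs1 (0.16), Mbtps1 (0.12), a protease that cuts ATF6, and Traf2 (-0.16), an adaptor of IRE1.

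A wider set of secretory genes was level too. In 4 lists with 59 measured genes 32 were higher and 27 lower, the median was 0.00, and none differed by 0.5 or more in either direction. Among 13 further folding and oxidation genes, with a median of -0.04, Uggt1 (0.20), the glycoprotein folding sensor, and Txndc11 (0.19) were highest. Ero1a (-0.27), the oxidase that recharges disulfide isomerases, and Pdia5 (-0.24) were lowest. Pdia5 was at 6.25 against 6.49 on a single probe set, below the median of all probe sets. Each of these 4 values lay inside the yardstick of 0.31, which was taken from probe sets at or above that median.

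Among 18 genes of the channel, signal peptidase and N-glycosylation 13 were higher, with a median of 0.04. All 18 lay above the 75th percentile of levels, where 62.7% of all genes were higher, also with a median of 0.04. They ran from Krtcap2 (-0.08) and Sec62 (-0.04) to Stt3b (0.14) and Rpn1 (0.16), of which Stt3b and Rpn1 are subunits of the oligosaccharyltransferase. Among 12 other degradation genes the median was -0.02, from Ube2g2 (-0.18) and Erlec1 (-0.15) to Faf2 (0.12) and Man1b1 (0.13). Among 16 genes of the COPII coat and of ER to Golgi transport the median was 0.00. Sec24d, a cargo subunit of the coat, stood lowest, at 7.16 against 7.58 (-0.42) on a single probe set, followed by Sar1a (-0.08). Tmed10 (0.13) and Sec24a (0.12) stood highest.

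The members were also read by the promoter elements shown above. All 11 members with an ERSE or ERSE-II were higher on the array titled knockout, with a median of 0.13 and a range from 0.02 (Herpud1) to 0.35 (Calr). Of the 11, 3 differed by less than 0.084, the median gap between probe sets, and 10 lay above the 75th percentile of levels, where 62.7% of all genes were higher. Of the 19 members with a window and neither element 10 were higher and 9 lower, with a median of 0.03. The 7 members with no window in the table used had 5 higher and 2 lower and a median of 0.07. This grouping was made after the values were seen and has no test. Outside the 37 genes 18 measured genes held an element, and 10 of them reached the median level, against all 11 members. Of the 18 genes 9 were higher and 8 lower, 1 was equal, and their median was 0.00. Among those at or above the median level the count was 6 of 10, with a median of 0.08, and above the 75th percentile of levels it was 5 of 7, with a median of 0.10. The 10 members with an element above that percentile had a median of 0.12.

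**Figure D3:**
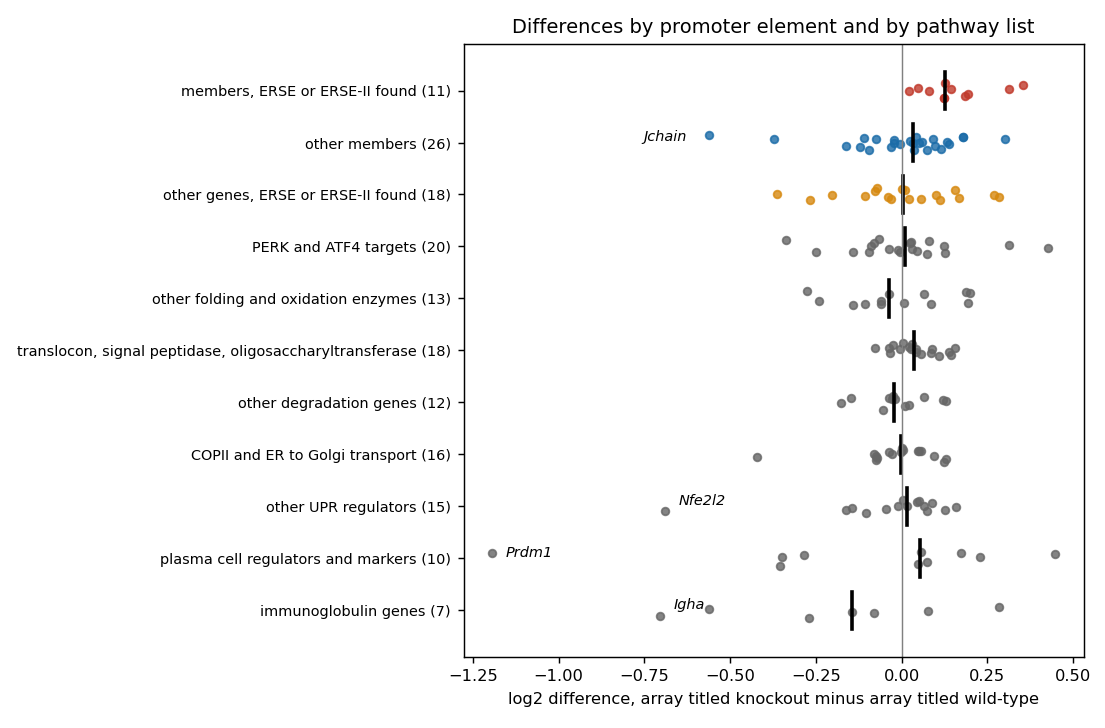
Log2 difference (horizontal axis, array titled knockout minus array titled wild-type) of single genes (points), with the number of genes in brackets and a black bar at each median. Rows are members with a promoter element found, the other members, other genes with the element and 8 pathway lists. The other members include the 7 with no window, which were not searched. The 11 members with an element all lie above 0, the 18 other genes with an element spread to both sides, and Prdm1 (-1.19), Igha (-0.70), Nfe2l2 (-0.69) and Jchain (-0.56) lie far to the left.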

How the data were processed

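RNA of 2 samples was measured on Affymetrix 3′ arrays, with biotin-labelled cRNA, per the labels' protocols. The deposited table holds log2 intensities of 45101 probe sets between 3.09 and 15.4. The unit was read from the values, with the authors' summarisation and normalization not given in the sources used here. After sorting, the columns were within 0.063 of each other at every rank, so a difference in total RNA per cell would not show. Depth does not apply to arrays, and their number limits the precision.

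Each gene took its probe set with the highest mean among those whose platform annotation names that gene alone (34945 probe sets). No filter on low values was applied. Differences are the array titled knockout minus the array titled wild-type. The members and gene lists were chosen with earlier results of these data known. Every member was named, and of each pathway list the 2 highest and 2 lowest genes and those differing by 0.5 or more. Listed symbols that lacked such a probe set were left out, and a planned look at protein C termini was not run. The functions recovered known differences on simulated data. Results were recomputed with averaged probe sets, plain _at probe sets, quantile normalization, subtraction of a loess curve (span 0.3), and filters at the median and the 75th percentile of levels. Tables were handled in Python 3.11.15 with NumPy 2.4.6 and pandas 2.3.3, the loess curve came from statsmodels 0.14.6, and figures were drawn with matplotlib 3.10.9.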

Additional observations from a re-analysis of the deposited data

How the results depend on the processing

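The median over the members stayed between 0.05 and 0.07 under all 6 alternatives, while that over all genes ran from -0.01 to 0.04. Under each of the 6 alternatives 0 members were higher by 0.5 or more. The count of members lower by 0.5 or more was 1 in each, except with only genes at or above the 75th percentile of levels. There it was 0 and the median of the antibody assembly genes was 0.11, because Jchain is below that level and Mzb1 alone was left. Branch medians kept their direction for the chaperones (0.09 to 0.13) and the isomerases (0.07 to 0.14), while that of the sensors ran from -0.02 to 0.03 and has no direction. Single members moved by more than the median disagreement of probe sets in 7 of 37 cases with the mean of probe sets and 2 of 33 with plain _at sets. Xbp1 was 0.22 and Fkbp11 -0.17 with plain sets, each from the dimmest probe set of its gene (7.26 against 7.05 and 4.50 against 4.67). The 11 members with an ERSE or ERSE-II were higher under every alternative that kept them, a check added after the data were seen, with a lowest value of 0.00 for the loess curve. No paired analysis was possible because each label has 1 array. For the same reason no array could be left out.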
